A study of Homo sapiens with 6 samples.

Results

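The genes described here are 9 genes known from megakaryocytes and platelets or from the control of that lineage: GP1BB, NRGN, PDGFB, ANGPT1, FLI1, RUNX1, THBS1, MYL9 and PLEK. They were taken by name, with earlier results of these data known. Of the 9, 8 have a row among the 19498 genes of the expression table, and FLI1 was not analysed here. The filter on low values, which asked for a normalised count of at least 10 in 3 or more of the 6 libraries, was passed by 6 of them (GP1BB, NRGN, PDGFB, ANGPT1, RUNX1 and MYL9) among 16658 genes in all, while THBS1 and PLEK fell short of it.

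Messenger RNA was sequenced from K562, an established line from a chronic myeloid leukaemia with the BCR::ABL1 fusion kinase. The comparison was between genotypes, in 6 libraries. The ACK KO group held 3 libraries of K562 cells knocked out for ACK, the non-receptor tyrosine kinase encoded by TNK2, and the WT group held 3 libraries of K562 cells with no such label. All libraries came from cells in RPMI-type medium with 10% serum and 10 mM glutamine, sampled when material for chromatin profiling was taken, and no other agent is named. The labels call the libraries biological replicates but do not say whether they were separate cultures or how many clones they came from, so p-values measure the spread between these libraries, and genotype cannot be told apart from other differences between the cells that carry each label.

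Megakaryocytes are the bone marrow cells that shed platelets. They arise from a progenitor shared with red cells under transcription factors such as GATA1, RUNX1 and FLI1, fill granules with growth factors and adhesive proteins, and carry the glycoprotein Ib complex, with which platelets catch von Willebrand factor on damaged vessels. K562 cells keep features of both lineages, and phorbol esters are widely used to push them towards a megakaryocytic state.

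Values are normalised counts as the authors deposited them, and read depth is unknown. The values of a library summed to 43.5 to 49.5 M in ACK KO and 46.7 to 53.3 M in WT. TNK2 had 741, 506 and 598 normalised counts in ACK KO libraries 1 to 3, against 829.7, 613 and 642 in WT libraries 1 to 3. The groups overlapped, the log2 difference was -0.18 (95% interval -0.68 to 0.32), and the exact permutation p over the 6 libraries (two-sided) was 0.4, with 0.1 as the smallest value the design allows. The level of TNK2 mRNA therefore did not check the labels. Summed values of an erythroid list ran from 130070 to 180670 in ACK KO and from 99362 to 186130 in WT, and those of a lymphoid list from 1616 to 3619 in ACK KO and from 842 to 3392 in WT. A list of epithelial and fibroblast markers summed to 4701 to 5294 in ACK KO and 4383 to 5188 in WT, nearly all of it EPCAM. Of these lists 4 of 20 tested erythroid genes rose (adjusted p under 0.05, limma), among them HBE1, FECH and ALAS2, and none fell. Of all genes tested 5.37% were higher and 4.96% lower. The erythroid counts were 7 higher and 3 lower with the replicate number as a block, a fit that called 39.7% of all genes tested. None of the lymphoid genes passed (0 of 4), and COL1A1 was the 1 of 2 tested epithelial and fibroblast genes that rose. The part of these shifts in the results below was not tested.

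Among the listed genes, GP1BB, NRGN and PDGFB were higher and ANGPT1 was lower in ACK KO at an adjusted p under 0.05 (limma, Benjamini-Hochberg over all genes tested), where 10.3% of all genes tested passed, 5.37% higher and 4.96% lower. RUNX1 and MYL9 did not pass. The ACK KO and WT libraries did not overlap for the first 4 of these genes and for RUNX1, as for 30% of all genes tested. With the replicate number as a block RUNX1 also passed, making 3 higher and 2 lower, where 19.7% of all genes tested were called higher and 20% lower. Without the filter the same 4 of 8 passed, beside 8.91% of 19498 genes. PDGFB entered the test only because its ACK KO values reached the filter, so its presence among the tested genes already required a difference. The 9 genes were also chosen with earlier results of these data known, so their share passing is no independent support.

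**Figure D1:**
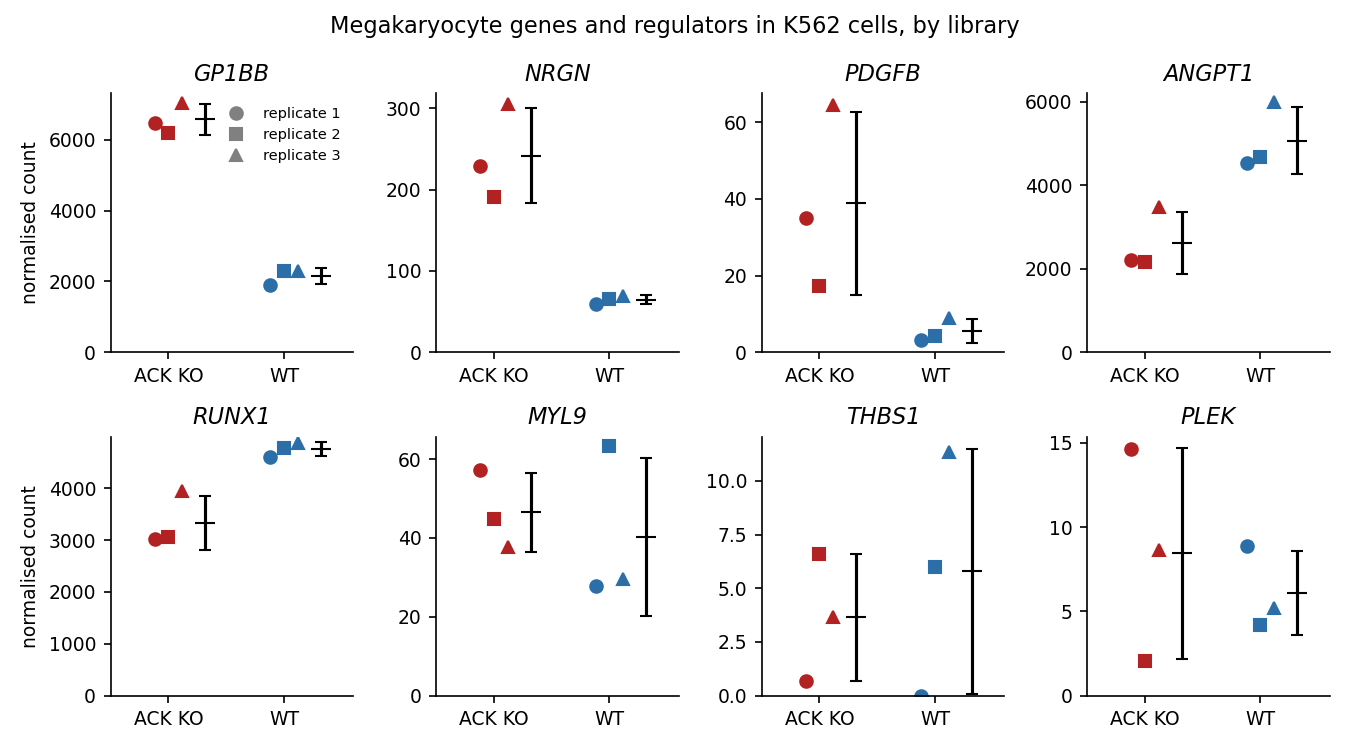
Normalised count (y axis, from 0) of 8 listed genes in each library, ACK KO in red and WT in blue, with the replicate number as the symbol; bars beside the points give the mean and SD of 3 libraries. GP1BB, NRGN and PDGFB lie higher in all 3 ACK KO libraries, ANGPT1 and RUNX1 lie lower in all 3, and the groups overlap for MYL9, THBS1 and PLEK.

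GP1BB encodes the beta subunit of platelet glycoprotein Ib, which is disulphide-linked to the ligand-binding alpha subunit and is needed to bring the receptor to the cell surface. The gene (ENSG00000203618.5) lies on the plus strand of chromosome 22, chr22:19722945-19724771 in GRCh38. It had 6486, 6201 and 7049 normalised counts in ACK KO libraries 1 to 3, against 1901, 2299.6 and 2278 in WT libraries 1 to 3. Every ACK KO library stood far above every WT library, and the libraries of each group lay close together. The means were 6579 ± 431 in ACK KO and 2159.9 ± 224 in WT (SD, n = 3 each), a rise of 3.05-fold or a log2 difference of 1.61 (SE 0.13, 95% interval 1.30 to 1.92, limma adjusted p = 0.000729). A log2 difference of larger size was found for 7.68% of genes tested. Comparing libraries of the same replicate number gave log2 differences of 1.77, 1.43 and 1.63. The call held in each of 6 fits without 1 library, with limma adjusted p from 0.00113 to 0.00787.

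The GP1BB value shares its position with other records. GP1BB lies just downstream of SEPTIN5, which encodes a septin of the platelet cytoskeleton, and a read-through record (ENSG00000284874) joins the pair. All 3 overlap on the same strand, and how the counting divided reads among them is not stated in the sources used here. SEPTIN5 had 19967, 22278 and 22233 normalised counts in ACK KO, against 12907, 8702 and 8685 in WT. It rose by a log2 of 1.11 (SE 0.18, limma adjusted p = 0.0117), though its call was lost without ACK KO library 2 (0.0531), ACK KO library 3 (0.0624) or WT library 3 (0.0609). The read-through had 9519, 11864 and 12600.5 in ACK KO, against 4826, 5327 and 4318 in WT, a log2 difference of 1.23 (SE 0.15, limma adjusted p = 0.00415). All 3 records were thus higher in ACK KO with no overlap between groups. Their sum was 35971, 40343 and 41882 in ACK KO and 19634, 16329 and 15281 in WT. GP1BB made up 18.0%, 15.4% and 16.8% of that sum in ACK KO, against 9.68%, 14.1% and 14.9% in WT, so its share was higher in every ACK KO library than in any WT library, though ACK KO library 2 and WT library 3 were close. Of 10 tested neighbours within 250 kb, these overlapping records were the 2 that passed, where 10.3% of all genes tested passed. In the block fit 3 were higher and 1 lower, where 39.7% of all genes passed. The other genes of chromosome 22 had a median log2 difference of 0.03.

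**Figure D2:**
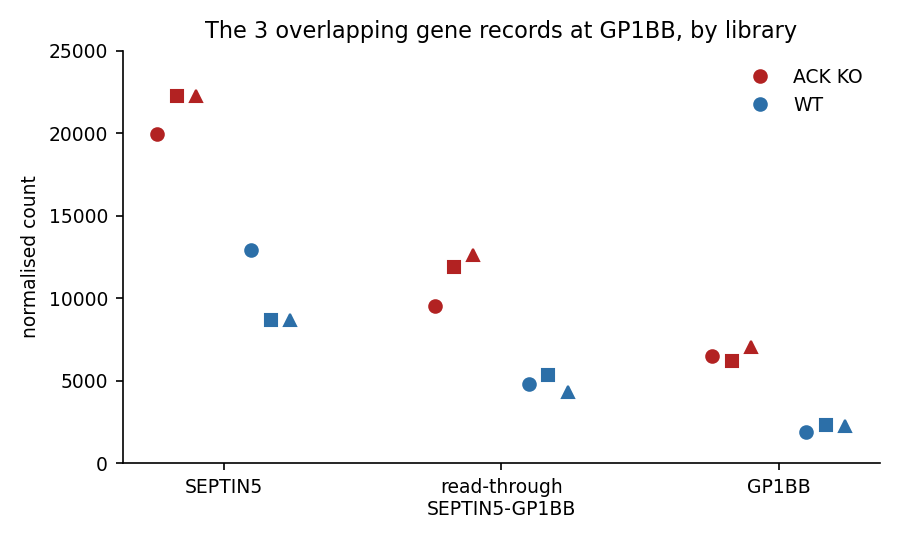
Normalised count (y axis, from 0) of SEPTIN5, the SEPTIN5-GP1BB read-through and GP1BB in each library, ACK KO in red to the left of WT in blue, with the replicate number as the symbol. In each of the 3 overlapping records the ACK KO libraries lie above the WT libraries.

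Stretches around GATA, RUNX and ETS letters in the 250 bases before the GP1BB start annotated by RefSeq (GRCh38.p14) are shown because GATA1, RUNX1 and FLI1 are the classical regulators of this gene class. That start lies inside the GENCODE record, so the stretches fall within annotated exons and only short windows are given, on the plus strand, with the matching letters in capitals. They lie at chr22:19723397-19723420, chr22:19723460-19723483 and chr22:19723358-19723381.
GP1BB GATA: gatagtgtgCTATCTgccgctgca
GP1BB RUNX: ccgcagcacTGTGGTcggtgcggg
GP1BB ETS: gggtgggagcGGAAGcctgagcgg
The first match starts 133 bases before the start and reads AGATAG on the other strand, the second 70 bases and the third 171 bases before it. On both strands, the GATA letters (AGATA or TGATA followed by A or G) occur in 22.3% of 35116 RefSeq promoter windows of the same length, TGTGGT in 11%, and GGAAG in 65.1%. The STAT letters TTCNNNGAA (6.57% of windows) and the NF-E2 letters TGANTCA (6.57%) had no match before GP1BB. A match describes the letters and is not evidence of binding.

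NRGN encodes neurogranin, a small protein that binds calmodulin when calcium is low; it is best known from neurons, and its transcript is abundant in platelets. The gene (ENSG00000154146.13) is at chr11:124739846-124747210 on the plus strand. It had 228, 191 and 306 normalised counts in ACK KO libraries 1 to 3, against 59.1, 65.7 and 69.4 in WT libraries 1 to 3. The WT libraries were nearly alike, and the lowest ACK KO library was well above all of them. The means were 242 ± 58.7 in ACK KO and 64.7 ± 5.21 in WT (SD, n = 3 each), a rise of 3.63-fold with a log2 difference of 1.86 (SE 0.26, 95% interval 1.24 to 2.48, limma adjusted p = 0.00665). Libraries paired by number differed by 1.93, 1.52 and 2.12 on the log2 scale. The call held without each library in turn, with limma adjusted p from 0.0123 to 0.041. None of 12 tested neighbours within 250 kb passed at the limma threshold, where 10.3% of all genes tested passed. With the replicate number as a block 5 were called higher and 2 lower, where 39.7% of all genes passed. ESAM, an endothelial and platelet adhesion gene 5.4 kb away, passed in neither fit (log2 difference -0.60, limma adjusted p = 0.642 and 0.254 with the block). The other genes of chromosome 11 were centred on 0.

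The NRGN promoter is shown because NRGN rose with GP1BB, on another chromosome, and holds fewer of the same letters. The 154 bases that precede the GENCODE record, chr11:124739692-124739845 on the plus strand, start 250 bases before the RefSeq start.
NRGN: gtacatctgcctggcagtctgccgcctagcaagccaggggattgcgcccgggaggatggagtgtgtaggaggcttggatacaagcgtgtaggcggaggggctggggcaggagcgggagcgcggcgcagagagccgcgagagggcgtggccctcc
In the full 250 bases the GATA, RUNX, STAT and NF-E2 letters had no match on either strand. The ETS letters had 1 match, 51 bases before the RefSeq start and so outside the stretch printed.

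ANGPT1 encodes angiopoietin-1, the ligand that activates the receptor kinase TIE2 on endothelial and blood stem cells, and which megakaryocytes and platelets also release. The gene (ENSG00000154188.10) is at chr8:107249482-107498055 on the minus strand. It had 2211, 2169 and 3484 normalised counts in ACK KO libraries 1 to 3, against 4539, 4665 and 5990.3 in WT libraries 1 to 3. In both groups library 3 was the highest, and no ACK KO library reached any WT library. The means were 2621 ± 747 in ACK KO and 5065 ± 804 in WT (SD, n = 3 each). ANGPT1 fell by 0.97 on the log2 scale, 1.97-fold (SE 0.22, 95% interval of the log2 difference -1.50 to -0.45, limma adjusted p = 0.0384). Paired by number, the log2 differences were -1.04, -1.10 and -0.78. The call held without ACK KO library 3 (0.0264) or WT library 1 (0.0416) and was lost without ACK KO library 1 (0.103) or 2 (0.131) and without WT library 2 (0.0949) or 3 (0.151), all limma adjusted p-values. It was also lost when every library was scaled to the same sum (limma adjusted p = 0.0546) and without the intensity trend of the fit (0.0676). No neighbour of ANGPT1 within 250 kb was tested, and the other genes of chromosome 8 had a median log2 difference of -0.08. In bulk RNA, fewer cells that express a gene and less RNA per cell cannot be told apart.

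PDGFB encodes the B chain of platelet-derived growth factor, a mitogen for connective tissue cells that platelets release from alpha granules. The gene (ENSG00000100311.16) is at chr22:39223359-39244751 on the minus strand. It had 35.0, 17.2 and 64.4 normalised counts in ACK KO libraries 1 to 3, against 3.09, 4.34 and 9.03 in WT libraries 1 to 3. All ACK KO libraries were above all WT libraries, but the ACK KO values were widely spread and the WT values were near the floor of the table. The means were 38.8 ± 23.9 in ACK KO and 5.49 ± 3.13 in WT (SD, n = 3 each). PDGFB rose by a log2 of 2.54 (SE 0.60, 95% interval 1.12 to 3.96, limma adjusted p = 0.0426), or 5.80-fold on the log2(value + 1) scale, and the log2 difference was 1.95 with 5 in place of 1 as the pseudocount. The call held in 1 of 6 fits without 1 library, that without ACK KO library 2 (limma adjusted p = 0.0438). It was lost without ACK KO library 1 (0.107) or 3 (0.15) and without WT library 1 (0.0707), 2 (0.128) or 3 (0.0728), and also without both replicate 1 libraries (0.0505), all limma adjusted p-values. The sister chain gene PDGFA had 49.6 ± 10.7 normalised counts in ACK KO and 165 ± 89.5 in WT, a log2 difference of -1.62 in the opposite direction that did not pass (limma adjusted p = 0.0553) and that passed with the replicate number as a block (0.0036). PDGFA lies on chromosome 7, where genes were generally higher in ACK KO (median log2 difference 0.39).

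THBS1 encodes thrombospondin-1, an adhesive glycoprotein that is a major cargo of platelet alpha granules. The gene (ENSG00000137801.10) is at chr15:39581079-39599466 on the plus strand. It had 0.683, 6.61 and 3.64 normalised counts in ACK KO libraries 1 to 3, and 0, 5.99 and 11.4 in WT libraries 1 to 3. The groups overlapped throughout, and replicate 1 was the lowest library in each. The THBS1 record overlaps that of FSIP1 on the other strand, and whether counting used strand is not stated in the sources used here. Fitted without the filter, the log2 difference of THBS1 was -0.18 with a standard error of 1.05 (limma adjusted p = 0.946). A change of either sign could therefore not be resolved at this level. Its promoter is shown as that of a gene with almost no RNA here (250 bases, chr15:39580829-39581078, plus strand, RefSeq GRCh38.p14), with the STAT and the ETS letters in capitals.
THBS1: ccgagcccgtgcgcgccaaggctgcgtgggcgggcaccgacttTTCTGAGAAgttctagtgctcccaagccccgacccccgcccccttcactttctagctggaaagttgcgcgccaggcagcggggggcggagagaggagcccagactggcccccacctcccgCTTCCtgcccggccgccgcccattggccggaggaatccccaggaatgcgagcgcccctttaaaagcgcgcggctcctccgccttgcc
The STAT match TTCTGAGAA starts 207 bases and the ETS match, read on the other strand, 87 bases before the start. The GATA, RUNX and NF-E2 letters had no match.

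PLEK encodes pleckstrin, the main substrate of protein kinase C in platelets. The gene (ENSG00000115956.10) is at chr2:68365173-68397453 on the plus strand. It had 14.6, 2.08 and 8.63 normalised counts in ACK KO libraries 1 to 3, and 8.89, 4.19 and 5.21 in WT libraries 1 to 3. Library 1 was the highest and library 2 the lowest in both groups, which overlapped. Without the filter its log2 difference was 0.18 (SE 0.68, limma adjusted p = 0.916). The 141 bases that precede its GENCODE record (chr2:68365032-68365172, plus strand, starting 250 bases before the RefSeq start) are shown for comparison with GP1BB, since both hold TGTGGT, in capitals.
PLEK: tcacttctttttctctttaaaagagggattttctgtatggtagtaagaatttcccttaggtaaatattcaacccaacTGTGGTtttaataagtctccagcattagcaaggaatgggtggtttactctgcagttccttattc
The match starts 173 bases before the RefSeq start, against 70 bases in GP1BB. In the full 250 bases PLEK had 2 ETS matches, both outside the stretch printed, and no GATA, STAT or NF-E2 match.

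MYL9 encodes a regulatory light chain of non-muscle and smooth muscle myosin and is a known RUNX1 target in megakaryocytes. The gene (ENSG00000101335.10) is at chr20:36541484-36551447 on the plus strand. It had 57.2, 44.7 and 37.6 normalised counts in ACK KO libraries 1 to 3, against 27.9, 63.4 and 29.7 in WT libraries 1 to 3. WT library 2 was the highest of all 6, above every ACK KO library. The means were 46.5 ± 9.95 in ACK KO and 40.3 ± 20.02 in WT (SD, n = 3 each), with a log2 difference of 0.28 (SE 0.41, 95% interval -0.69 to 1.25, limma adjusted p = 0.748) and of -0.08 without both replicate 1 libraries. MYL9 lies on chromosome 20, where the median log2 difference of the other 392 tested genes was 0.55, with 90.1% above 0, and the genes within 2 Mb had a median of 0.61. The interval of MYL9 includes both 0 and these medians. The MYL9 record overlaps that of DLGAP4-AS1 on the other strand, and whether counting used strand is not stated in the sources used here. Within 250 kb, 2 of 8 tested neighbours rose (limma), DLGAP4 and DSN1, where 5.37% of all genes tested were higher. With the block 4 were called higher, where 19.7% of all genes were. The log2 difference of DLGAP4, a scaffold gene 12.8 kb away, was 0.74 (limma adjusted p = 0.035), and its call held only in the fit without WT library 1, with limma adjusted p of 0.0811, 0.114, 0.148, 0.122 and 0.149 without ACK KO libraries 1, 2 and 3 and WT libraries 2 and 3. It was also lost without the intensity trend (0.058) and with the same upper quartile per library (0.0588).

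RUNX1 encodes the DNA-binding subunit of core binding factor, which is needed for blood stem cells to form and for megakaryocytes to mature, and whose germline loss causes a familial platelet disorder. The gene (ENSG00000159216.18) is at chr21:34787801-36004667 on the minus strand. It had 3017, 3049.7 and 3937 normalised counts in ACK KO libraries 1 to 3, against 4609, 4783 and 4864 in WT libraries 1 to 3. The WT libraries were tightly grouped and all above ACK KO, where library 3 stood higher than the other two. The means were 3335 ± 522 in ACK KO and 4752 ± 130.4 in WT (SD, n = 3 each), with a log2 difference of -0.52 (SE 0.14, 95% interval -0.86 to -0.19). This did not pass (limma adjusted p = 0.0667). It passed with the replicate number as a block (limma adjusted p = 0.00315), in a fit that called 39.7% of all genes tested, and without both replicate 1 libraries (0.0301). Paired by number, the log2 differences were -0.61, -0.65 and -0.30.

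Of 6 tested neighbours of RUNX1 within 250 kb, 2 fell (limma), where 4.96% of all genes tested were lower. LINC01426, an RNA annotated as antisense 2.9 kb away, had 202 ± 48.2 normalised counts in ACK KO and 745 ± 98.9 in WT (log2 difference -1.90, limma adjusted p = 0.00431). CLIC6, an intracellular chloride channel gene 69.6 kb away, had 13.2 ± 6.54 in ACK KO and 124 ± 31.4 in WT (log2 difference -3.22, limma adjusted p = 0.00642). The LINC01426 record does not overlap that of RUNX1. Whether counting used strand is not stated in the sources used here, and whether the LINC01426 value holds reads of another transcript was not tested. The other genes of chromosome 21 had a median log2 difference of 0.01. Near PDGFB 1 of 10 neighbours fell, APOBEC3G, a cytidine deaminase gene 135.6 kb away (log2 difference -1.86, limma adjusted p = 0.0198), a call lost without ACK KO library 2 (0.0505) or 3 (0.0861) and without WT library 2 (0.0586) or 3 (0.0834). Near THBS1 1 of 3 fell, a gene listed only as ENSG00000261136, and near PLEK none of 9 passed (limma). With the block the neighbours called were 1 higher and 3 lower near RUNX1, 0 higher and 4 lower near PDGFB, 1 lower near THBS1, and 1 higher and 1 lower near PLEK. The block fit called 19.7% of all genes tested higher and 20% lower.

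**Figure D3:**
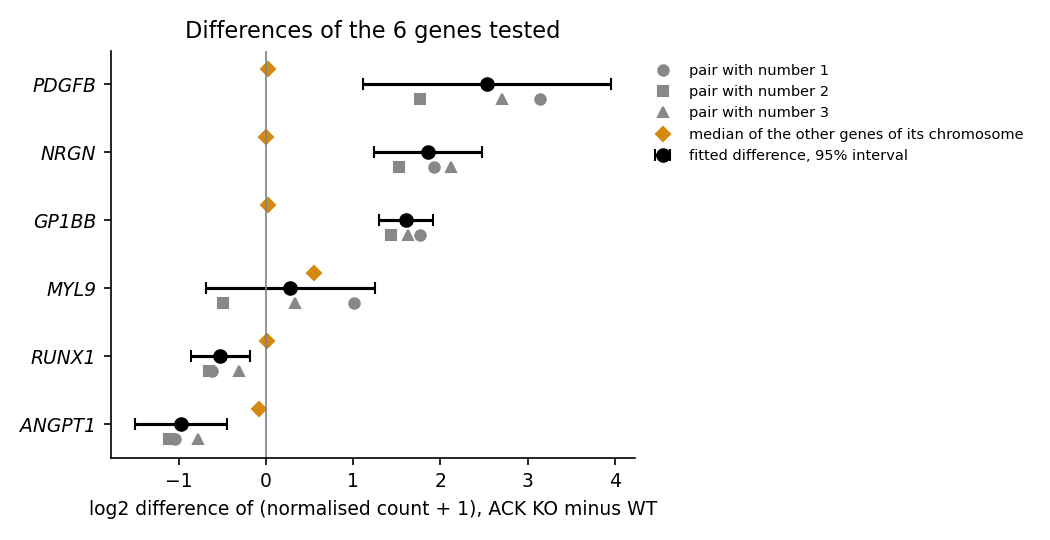
Log2 difference of (normalised count + 1), ACK KO minus WT (x axis), for the 6 genes tested; black points and bars are the fitted difference and its 95% interval, grey symbols the difference within each replicate number, and orange diamonds the median of the other genes of the same chromosome. The intervals of GP1BB, NRGN and PDGFB lie above 0 and those of ANGPT1 and RUNX1 below 0, while that of MYL9 includes 0 and the raised median of chromosome 20.

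The genes differed widely in level. Per kilobase of annotated exon, GP1BB had a mean of 4236 normalised counts in ACK KO and 1391 in WT, and was the highest of the listed genes in both. ANGPT1 had 368 per kilobase in ACK KO and 711 in WT, RUNX1 had 214 in ACK KO and 305 in WT, and NRGN had 185 in ACK KO and 49.5 in WT. MYL9, with 16.5 per kilobase in ACK KO and 14.3 in WT, and PDGFB, with 10.3 in ACK KO and 1.46 in WT, were much lower, and PLEK and THBS1 were lowest, at 2.55 and 0.398 in ACK KO and 1.84 and 0.632 in WT. ANGPT1 and RUNX1, the most abundant after GP1BB on this scale, both had lower values in ACK KO. Before division by exon length their WT means of 5065 and 4752 were above that of GP1BB, 2160. The GP1BB value also depends on how reads were divided among its overlapping records. In ACK KO, library 3 was the highest of its group for 5 of the 6 tested genes, all but MYL9, while it was the highest for 20.9% of all genes tested. In WT, library 3 was the highest for 4 of the 6, against 18.5% of all genes tested. What sets library 3 apart was not tested.

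By the distance between profiles over the 6 libraries, the root mean square difference of log2(value + 1) after each gene is centred on its mean, the genes nearest to GP1BB were PON2 (0.068), OXCT1 (0.116) and MACC1 (0.129). PON2 and MACC1 lie on chromosome 7 and OXCT1 on chromosome 5. Nearest to NRGN were DENND2B (0.161), ASPH (0.173) and again PON2 (0.181), and nearest to PDGFB, at a greater distance, were TSPAN5 (0.334), IGFBP5 (0.419) and HJV (0.463). ANGPT1 was nearest to SOWAHC (0.105), NAA80 (0.117) and STARD4 (0.119). RUNX1 had the closest neighbours of all 6 genes, the cyclin D3 gene CCND3 (0.035), the megakaryocytic and erythroid repressor gene GFI1B (0.051) and NFKBID (0.054). The distance is not scaled to how much a gene varies, so genes that vary little between libraries tend to have closer neighbours. MYL9 was nearest to SLC16A6 (0.197), SRRM2-AS1 (0.211) and GAREM2 (0.248). The candidates were genes with a mean of 100 or more, 12133 for each gene that reached that mean itself, and the likeness is over 6 libraries only.

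To set the listed genes beside others of the lineage, 6 lists of megakaryocyte and platelet genes were counted, with 128 genes in all. Of these, 109 have a row and 102 were tested. Among those tested are PDGFB and JAM3, which passed the filter only through ACK KO, and TIMP3 and STX11, which passed it only through WT. PECAM1 and RAB27B reached the filter value in some ACK KO libraries but needed WT libraries to pass. The lists held 10 genes that rose and 23 that fell (limma, adjusted p under 0.05), 32.4% of those tested beside 10.3% of all genes. Their median log2 difference was -0.21, beside -0.02 for all genes. GP1BB and SEPTIN5, both among the genes that rose, are overlapping records on the same strand and were counted separately. Without the 9 listed genes the counts were 7 higher and 22 lower of 96, with a median of -0.24. With the replicate number as a block 17 rose and 46 fell of 102, where 39.7% of all genes passed. Several lists contain genes of chromosomes 5, 7 and 20, whose median log2 differences were -0.62, 0.39 and 0.54, and the part of this in the counts was not tested. The lists too were chosen with earlier results of these data known, so their counts are no independent support.

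**Figure D4:**
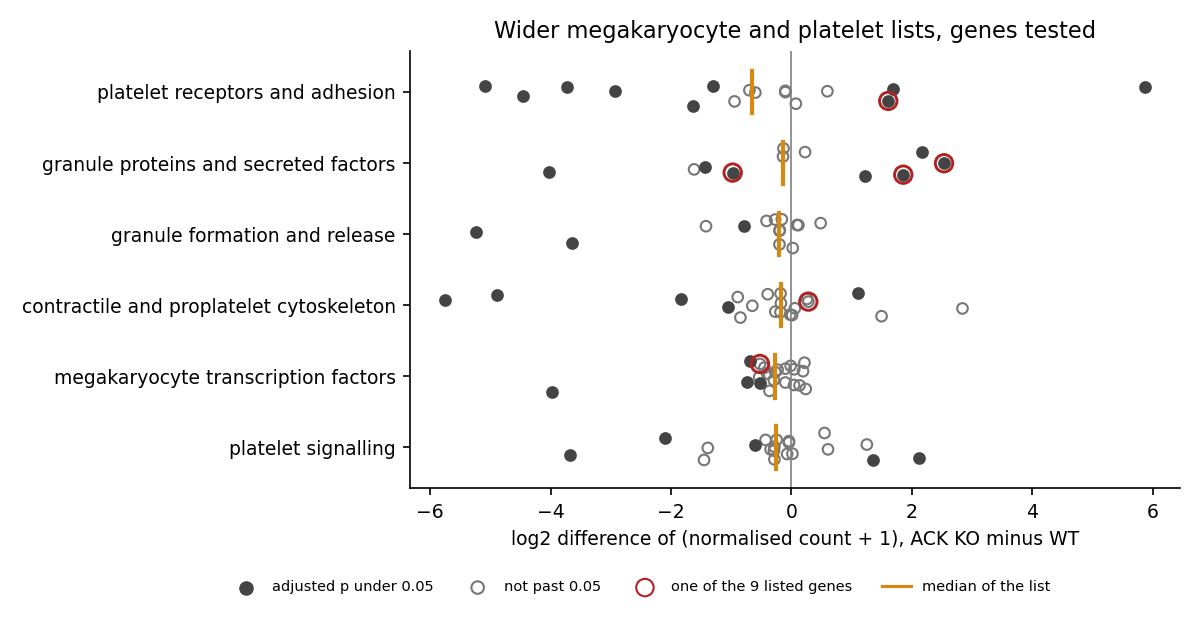
Log2 difference of (normalised count + 1), ACK KO minus WT (x axis), for each tested gene of the 6 lists; filled points passed an adjusted p of 0.05 (limma), red rings mark the 9 listed genes where tested, and orange bars give each list's median. All 6 medians lie below 0, and the receptor list has the lowest, -0.65.

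Of 16 tested receptors and adhesion molecules, 3 rose (GP1BB, CD9 and JAM3), 6 fell (ITGA2B, CD36, P2RY1, F2R, F2RL3 and PECAM1) and 7 did not pass. Of all genes tested 10.3% passed. The median log2 difference of the list was -0.65, and with the block 4 rose and 8 fell, where 39.7% of all genes passed. GP1BA, GP9, P2RY12, CLEC1B, SELP and TREML1 were not analysed here, so of the glycoprotein Ib-IX-V complex only GP1BB could be tested. P2RY1, an ADP receptor gene, had 838 ± 105 normalised counts in ACK KO and 2606 ± 221 in WT (SD, n = 3 each), a log2 difference of -1.64 (limma adjusted p = 0.00119). CD36, which encodes a scavenger receptor for thrombospondin and fatty acids, had 123 ± 71.7 in ACK KO and 4114 ± 1795 in WT (log2 difference -5.08, limma adjusted p = 0.00156), against the raised median of chromosome 7. F2RL3, the gene of the thrombin receptor PAR4, had 59.8 ± 47.3 in ACK KO and 1148 ± 384 in WT (log2 difference -4.46, and -5.05 without ACK KO library 3, limma adjusted p = 0.00426). JAM3, a junctional adhesion molecule gene, had 149.7, 32.0 and 82.9 in ACK KO and 0, 0 and 1.08 in WT, and passed the filter only through ACK KO (limma adjusted p = 0.00263). The size of its log2 difference follows the pseudocount, 5.87 with 1 and 3.90 with 5, and it was 6.46 without ACK KO library 2. ITGB1, the integrin beta 1 gene and the most abundant receptor that did not pass, had 15143.5 ± 1175 in ACK KO and 16258 ± 1824 in WT (log2 difference -0.10, limma adjusted p = 0.724).

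Of 11 tested granule proteins and secreted factors, 4 rose (TIMP1, CLU, NRGN and PDGFB), 3 fell (SRGN, ANGPT1 and TIMP3) and 4 did not pass. Of all genes tested 10.3% passed. The median log2 difference of the list was -0.13, and with the block 4 rose and 4 fell, where 39.7% of all genes passed. The alpha granule genes PF4, PPBP, VWF, MMRN1, F5 and F13A1 were not analysed here. TIMP3 and TIMP1, which encode inhibitors of matrix metalloproteinases, moved in opposite directions. TIMP3 had 4.40 ± 1.57 normalised counts in ACK KO and 84.0 ± 4.77 in WT (log2 difference -4.02, limma adjusted p = 0.00102), and its log2 difference was -3.26 with a pseudocount of 5. It passed the filter only through its WT values, so its test already required a difference. TIMP1 had 4809 ± 420.3 in ACK KO and 2069 ± 362 in WT (log2 difference 1.23, limma adjusted p = 0.00586). SRGN, which encodes the granule proteoglycan serglycin, had 1336 ± 178 in ACK KO and 3678 ± 824 in WT (log2 difference -1.44, limma adjusted p = 0.00707). CLU, the clusterin gene, had 211 ± 55.7 in ACK KO and 46.1 ± 14.2 in WT (log2 difference 2.18, limma adjusted p = 0.00967), a call lost without ACK KO library 3 (0.0561). VEGFA, the most abundant that did not pass, had 12515, 4159 and 4605 in ACK KO and 18277, 4182 and 4116 in WT, so that replicate 1 stood apart in both groups (log2 difference -0.13, limma adjusted p = 0.936).

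Of 14 tested genes of granule formation and release, 0 rose, 3 fell and 11 did not pass, where 10.3% of all genes tested passed. The median log2 difference of the list was -0.20, and with the block 1 rose and 5 fell, where 39.7% of all genes passed. RAB27B, a GTPase gene of dense granules, had 20.7, 2.07 and 16.5 normalised counts in ACK KO and 922, 286 and 235 in WT. Its log2 difference was -5.24 (limma adjusted p = 0.012), and -4.35 without ACK KO library 2 and -4.63 without WT library 1. AP3B1, which encodes an adaptor subunit of granule sorting, lies on chromosome 5 and fell by 0.78 on the log2 scale (limma adjusted p = 0.0109), a call lost without ACK KO library 3 (0.0592), WT library 2 (0.0517) or WT library 3 (0.0658). STX11, the syntaxin 11 gene, had 2.58 ± 2.49 in ACK KO and 36.1 ± 14.6 in WT (log2 difference -3.65, limma adjusted p = 0.0234). It too passed the filter only through WT. Its log2 difference was -2.44 with a pseudocount of 5 and -2.90 without ACK KO library 2, and its call was lost without ACK KO library 1 (0.0513), WT library 2 (0.0664) or WT library 3 (0.085). UNC13D, the Munc13-4 gene and the most abundant that did not pass, had a log2 difference of -0.41 (limma adjusted p = 0.119), and 0.0052 with the block.

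Of 20 tested genes of the contractile and proplatelet cytoskeleton, 1 rose (SEPTIN5), 4 fell and 15 did not pass, where 10.3% of all genes tested passed. The SEPTIN5 record overlaps that of GP1BB. The median log2 difference of the list was -0.18, and with the block 4 rose and 8 fell, where 39.7% of all genes passed. FERMT3, which encodes the integrin activator kindlin-3, had 45.4 ± 4.30 normalised counts in ACK KO and 2501 ± 252 in WT (SD, n = 3 each), a log2 difference of -5.75 (limma adjusted p = 3.78e-05). WAS, the Wiskott-Aldrich syndrome gene and an actin regulator downstream of Cdc42, had 24.2 ± 4.55 in ACK KO and 737 ± 48.4 in WT (log2 difference -4.89, limma adjusted p = 9.6e-05). DIAPH1, a formin gene on chromosome 5, had 7591 ± 1311 in ACK KO and 26968 ± 3933 in WT (log2 difference -1.83, limma adjusted p = 0.00157). TPM4, a tropomyosin gene, fell by 1.05 on the log2 scale (limma adjusted p = 0.00423). PFN1, the profilin gene and the most abundant that did not pass, had 10985, 23392 and 22594 in ACK KO and 10586, 28479 and 27598 in WT, with replicate 1 low in both groups.

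Of 21 tested transcription factors of the lineage, 0 rose, 4 fell and 17 did not pass, where 10.3% of all genes tested passed. The median log2 difference of the list was -0.27. With the block 1 rose and 11 fell, where 39.7% of all genes passed. ETS1 had 77.6, 22.3 and 35.9 normalised counts in ACK KO and 1280.2, 462 and 449 in WT (log2 difference -3.98, limma adjusted p = 0.00765), and it lies on chromosome 11, whose other tested genes were centred on 0. MRTFA, which encodes the actin-regulated coactivator of SRF, had 878 ± 24.0 in ACK KO and 1468 ± 177 in WT (log2 difference -0.73, limma adjusted p = 0.0224). LDB1 and LYL1, which encode members of the blood cell complexes that also hold TAL1 or GATA1, had log2 differences of -0.52 and -0.69 (limma adjusted p = 0.0302 and 0.038). The calls of MRTFA, LDB1 and LYL1 held only without WT library 1 and were lost without any 1 of the other 5 libraries, with limma adjusted p up to 0.111, 0.15 and 0.159. Those of LDB1 and LYL1 were also lost with the same sum per library (0.0911 and 0.115) and without the intensity trend (0.0731 and 0.0733), and that of LYL1 with the same upper quartile per library (0.075). GATA1, the most abundant factor that did not pass, had 6980.5, 7029.8 and 6863 in ACK KO and 9877, 8842 and 8921 in WT. Its libraries did not overlap, the log2 difference was -0.40 (limma adjusted p = 0.0637), and it passed with the block (0.00256), as RUNX1 did. SRF itself had 2685 ± 233 in ACK KO and 2601 ± 201 in WT, a log2 difference of 0.04 (95% interval -0.26 to 0.35).

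Of 20 tested genes of platelet signalling, 2 rose (SKAP2 and TBXAS1), 3 fell (LCP2, PTGS1 and RAP1B) and 15 did not pass. Of all genes tested 10.3% passed. The median log2 difference of the list was -0.26, and with the block 3 rose and 10 fell, where 39.7% of all genes passed. The enzymes of thromboxane synthesis moved in opposite directions. TBXAS1, the thromboxane synthase gene, had 84.9 ± 12.1 normalised counts in ACK KO and 18.9 ± 4.54 in WT (log2 difference 2.13, limma adjusted p = 0.00867), a call lost without ACK KO library 3 (0.055). PTGS1, the cyclooxygenase 1 gene, had 92.1 ± 43.3 in ACK KO and 376 ± 94.4 in WT (log2 difference -2.09, limma adjusted p = 0.0186), lost without ACK KO library 3 (0.0817), WT library 2 (0.0502) or WT library 3 (0.0762). SKAP2, an adaptor gene on chromosome 7 like TBXAS1, rose by a log2 of 1.36 (limma adjusted p = 0.00659). LCP2, the gene of the adaptor SLP-76 on chromosome 5, had 11.8, 26.8 and 67.9 in ACK KO and 337, 340 and 439 in WT (log2 difference -3.67, limma adjusted p = 0.0106), with log2 differences of -3.08 and -4.29 without ACK KO libraries 1 and 3 and a lost call without WT library 3 (0.0571). PRKCB, a protein kinase C gene and the most abundant that did not pass, had 36231 ± 5853 in ACK KO and 43839 ± 4881 in WT (log2 difference -0.28, limma adjusted p = 0.371, and 0.011 with the block).

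**Figure D5:**
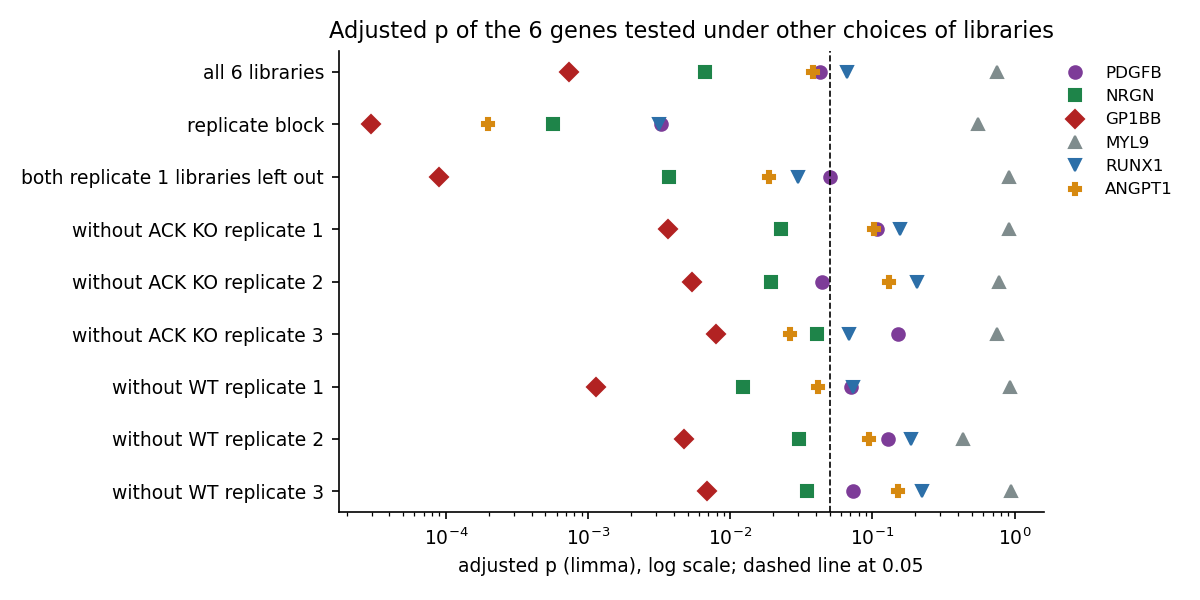
Adjusted p (limma; x axis, log scale, dashed line at 0.05) of the 6 tested genes in the fit of all 6 libraries, with the replicate number as a block, without both replicate 1 libraries and without each library in turn (rows). GP1BB and NRGN lie left of the line in every row, PDGFB, ANGPT1 and RUNX1 lie left of it in some rows and right in others, and MYL9 lies right of it in every row.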

How the data were processed

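The authors deposited normalised counts per gene, a linear signal, made from stranded polyadenylated RNA libraries with unique molecular identifier adapters (per the labels' protocols). Per the submitters' processing notes the tools were STAR 2.7.2b, Salmon 1.1.0, SAMtools, FastQC 0.11.7, R 3.6.1 and DESeq2 1.26.0 and the build was GRCh38, with no role or order given. Annotation release, counting settings and any use of the identifiers: not given in the sources used here. Values are fractional, and 18.1% to 36.3% of low values in a library lay on a common step (tolerance 0.02), so whole reads were not recovered and no count test was run. No gene has a mean under 3.38, and 0 value columns were unused.

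Symbols matched 19392 of 19498 identifiers and positions in GENCODE 29 matched 19112. After adding a pseudocount of 1 and taking log2, the 16658 genes that reached 10 in 3 or more libraries were tested (R 4.3.3, limma 3.58.1, trend on intensity) with Benjamini-Hochberg adjustment and a threshold of 0.05. Differences are ACK KO minus WT, and a fold is the antilog of the fitted difference. The script was tested on simulated data, drawn independently for each library and fitted without the replicate block. That test does not cover deviations shared by libraries of the same number. Promoters are from RefSeq (GRCh38.p14), which held an entry for 5 of the 9 genes, and the 250 bases before the start were searched on both strands. That of RUNX1, not printed above, had no match to the GATA, RUNX, ETS, STAT or NF-E2 letters.

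The 9 genes, the lists and the tests were chosen with earlier results of these data known, so no count over them is independent support. The text names TNK2, the 9 genes, up to 4 further genes of each list by smallest p among those past the threshold, the most abundant that did not pass, the 3 nearest profiles of each tested gene, and neighbours within 250 kb. CD9, ITGA2B, F2R, PECAM1, SEPTIN5, RAP1B, PDGFA and SRF, and the genes of the other cell type lists, were named beyond this, after their values were seen. Alternatives were another pseudocount (0.5 or 5), no filter or a filter of 50, scaling to the same sum or upper quartile, the replicate block, no trend, both replicate 1 libraries left out, and each library left out.

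Deviations of ACK KO and WT libraries of the same number from their group means correlated at 0.699, 0.521 and 0.342 across genes, each above 0.1, and unlike numbers 2 and 3 at 0.281 and 0.257. What a number marks is not in the labels. By this check they were treated as pairs in the block fit, whose values are given where they change a call or a count.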

Additional observations from a re-analysis of the deposited data

How the results depend on the processing

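The calls of GP1BB and NRGN kept their direction and their side of the threshold under all alternatives, with log2 differences of 1.52 to 1.71 and 1.68 to 2.02. Of 1013 alternative values of named genes 897 kept both, 80 no longer passed, 25 newly passed and 11 turned direction. With the replicate number as a block, 6612 of all genes tested passed against 1721 without it, and 63 of 102 genes of the 6 lists against 33. Among genes whose adjusted p is printed above, the block changed the calls of RUNX1, PDGFA, UNC13D, GATA1 and PRKCB, which then passed, and no other. Without both replicate 1 libraries the counts were 4731 and 56. Leaving out each library in turn gave 726 to 2183 of all genes, 2 to 3 of the listed genes (4 with all libraries) and 22 to 36 of the list genes. Log2 differences that turned direction, none past the threshold, were those of MYL9 (-0.082 without both replicate 1 libraries), ITGB1 (0.001 with the same sum per library) and VEGFA (0.077 without both replicate 1 libraries), and leaving out single libraries gave -0.64 to 0.58 for VEGFA, -0.64 to 0.18 for PFN1 and -0.019 to 0.12 for SRF. The same sum per library moved the median of all genes from -0.02 to 0.08. The log2 ratio of the summed level of the 8 genes was 0.09, and the difference of their median log2 values was 1.20. The sum rests mostly on GP1BB, which rose, and on ANGPT1 and RUNX1, whose values were lower. The median rests on the middle values, those of NRGN and MYL9, with PDGFB in place of MYL9 in ACK KO library 3. It therefore does not describe a typical member. Causes of the changes between settings were not tested. Depth is unknown, so precision rests on 3 libraries per group.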
